A study of Homo sapiens with 29 samples.

Results

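The comparison is of BEAS-2B cells exposed to 500 nM N-OH-PhIP with cells exposed to the solvent alone. Its members are the 6 arrays that the sample titles assign to these conditions, 3 for 500 nM N-OH-PhIP and 3 for DMSO, of the 29 arrays of the series. BEAS-2B cells come from human bronchial epithelium and were made immortal by a hybrid of adenovirus and SV40, whose large T antigen is known to bind p53, which limits them as a model of p53 signalling in normal airway. PhIP, a heterocyclic amine, reaches people through smoke and well-cooked meat, and N-OH-PhIP is what cells make of it by hydroxylating its amino group. Both groups carried 1% DMSO in the medium, were kept in LHC-9 on coated plates until about 70% confluent, and were exposed for 24 h, in triplicate cultures per the labels. The 1000 nM and 100 nM groups, to which 500 nM was also compared, had 3 arrays each and the same handling. The series asks, per its design text, at which dose a transcriptional effect can first be seen, and 500 nM is its second highest dose.

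N-hydroxylated heterocyclic amines are esterified by acetyltransferases and sulfotransferases to reactive species that bind guanine in DNA. Such bulky adducts are removed by nucleotide excision repair, halt RNA polymerase within transcribed genes and stall replication forks, and the damage signal stabilises p53, which drives genes of growth arrest, cell death and repair. A gene with a long transcribed span offers more places for a blocking lesion than a short one, and common fragile sites, regions prone to breaks when replication is impeded, often lie in such genes. Damaged epithelial cells are also known to secrete cytokines such as interleukin 6.

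RNA was amplified from 40 ng per culture and hybridised to a 3′ expression array. Values are linear normalized intensities, from 4.26 to 19796 over the 6 arrays, and changes are differences of log2(intensity + 16), given as 500 nM minus the other group with their SE. The offset shrinks the changes of dim probe sets. Precision is limited by the number of arrays. Of 27307 probe sets above a minimum mean level of 37.4, 12174 genes were represented, each by its brightest tested probe set unless stated. The genes of largest change against DMSO, 1000 nM and 100 nM are given by their probe set of largest change. Arrays of 500 nM correlated with each other at 0.980 to 0.992 over tested probe sets, DMSO arrays with each other at 0.991 to 0.997, and 500 nM arrays with DMSO arrays at 0.956 to 0.973. Replicates 2 and 3 of 500 nM stood farthest apart of the replicate pairs of 500 nM, DMSO, 1000 nM and 100 nM. Between them 478 probe sets differed by at least 2-fold, against 145 and 56 for the other 500 nM pairs and 5 to 260 for DMSO pairs. For actin, the 3′ over 5′ log2 ratio of the control probe sets was 1.67 ± 0.20 at 500 nM and 2.20 ± 0.07 in DMSO, and that of GAPDH was 0.20 ± 0.04 at 500 nM and 0.14 ± 0.01 in DMSO (SD, n = 3 each). The actin ratio was 1.51 ± 0.04 at 1000 nM and 2.16 ± 0.11 at 100 nM, and results that changed with the mean of both ratios as a covariate are named beside them. Of 14 markers of basal and cultured bronchial epithelium, 12 were on the array and 11 were above the minimum, KRT14 was below it, and their summed intensity was 27922 to 32670 at 500 nM and 21112 to 22763 in DMSO. Of 20 leukocyte markers, 18 were on the array and 2, CORO1A and CD14, were above the minimum, with PTPRC and the CD3 chains below it. Of 14 endothelial markers 3 were above it and of 13 fibroblast markers 4, with PECAM1, CDH5, COL1A2 and PDGFRA below it. Summed fibroblast marker intensity was 2490 to 2898 at 500 nM and 2234 to 2268 in DMSO, leukocyte intensity was 459 to 606 at 500 nM and 419 to 448 in DMSO, and endothelial intensity was 665 to 732 at 500 nM and 660 to 686 in DMSO. Of 15 markers of differentiated airway cells 7 were above it, with a summed intensity of 2243 to 2537 at 500 nM and 2685 to 2719 in DMSO. The part of such cells in the results below was not tested.

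Exposure to 500 nM was accompanied by changes in close to as many probe sets upward as downward. Of the 27307 tested, 12392 (45.4%) were called at an adjusted p of at most 0.05 (limma, Benjamini-Hochberg), 6304 higher and 6088 lower at 500 nM than in DMSO, and 1823 of the higher and 1613 of the lower differed by at least 1.5-fold. The arrays had nearly equal trimmed means as deposited, so this balance is relative to that common level. By genes, 3067 of 12174 (25.2%) rose and 3015 (24.8%) fell, and the median log2 change over all genes was 0.007. The counts of list members below are to be read against these shares. Counts without 500 nM replicate 3 or with the 3′ to 5′ covariate have no such shares beside them. Called probe sets in all were 13519 without that array and 9694 with the covariate. Whether a list changed more than all genes in those settings was not tested. In 10637 of the 12392 called probe sets the arrays of 500 nM and DMSO did not overlap. Groups that stand apart in a gene named below are therefore usual for a called probe set. The genes of largest change against DMSO were also chosen with groups apart. In a bulk sample, fewer cells of a type and less RNA per cell cannot be told apart. Of 4349 genes with several tested probe sets and a call, 253 (5.82%) had probe sets called in both directions.

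The largest increases were in genes of varied function. OTP, a homeobox factor of the developing hypothalamus, had 321, 286 and 263 at 500 nM, against 17.8, 19.6 and 38 in DMSO. UCA1, a long noncoding RNA first described in bladder cancer, had 509, 565 and 432 at 500 nM and 55.1, 60.5 and 52.6 in DMSO. CEACAM1, an adhesion receptor of epithelial and immune cells, had 380.3, 382 and 316 at 500 nM and 32.5, 40.3 and 37.3 in DMSO. In all 3 genes the lowest 500 nM array lay far above the highest DMSO array. Their log2 changes were 2.92 ± 0.14, 2.84 ± 0.12 and 2.83 ± 0.19, with adjusted p 1.06e-14, 5.37e-16 and 2.70e-12 (limma). RASAL1, a Ras GTPase activator, changed by 2.87 ± 0.14 and SP6, a zinc finger factor of tooth and skin epithelium, by 2.87 ± 0.11. PRDM1, the repressor BLIMP-1, had 956, 782 and 1157 at 500 nM and 129.5, 176 and 176 in DMSO (2.47 ± 0.15), with all 3 of its tested probe sets higher. HES2, a helix-loop-helix repressor, had 725, 797 and 491 at 500 nM and 109, 97.7 and 109.5 in DMSO. 500 nM replicate 3 was the lowest of the 3, and the log2 change was 2.47 ± 0.13 with that array and 2.68 without it. DMBT1, a secreted scavenger receptor of mucosal surfaces, showed the same order, with 500.1, 499.9 and 280.0 at 500 nM and 41.3, 83.8 and 66.5 in DMSO (2.46 ± 0.21, and 2.73 without replicate 3). ELAPOR1 (2.74), CFAP251 (2.65), LCE1B (2.64), a cornified envelope gene, GAL3ST4 (2.47), a sulfotransferase of glycans, ANKUB1 (2.43), DNAI3 (2.37), an axonemal dynein gene, and IL6 complete the 15 increases, whose members were ranked by the smaller change of the fits with and without replicate 3. All DMSO arrays of RASAL1 (12.2, 16.5 and 27.1), and some of OTP, CEACAM1, ANKUB1 and DNAI3, lay under the minimum level. The size of these increases therefore depends on the offset. The mean of RASAL1 over the series (5.742 log2) was just above the minimum for testing (5.739), and its high 500 nM arrays contributed to that mean.

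**Figure D1:**
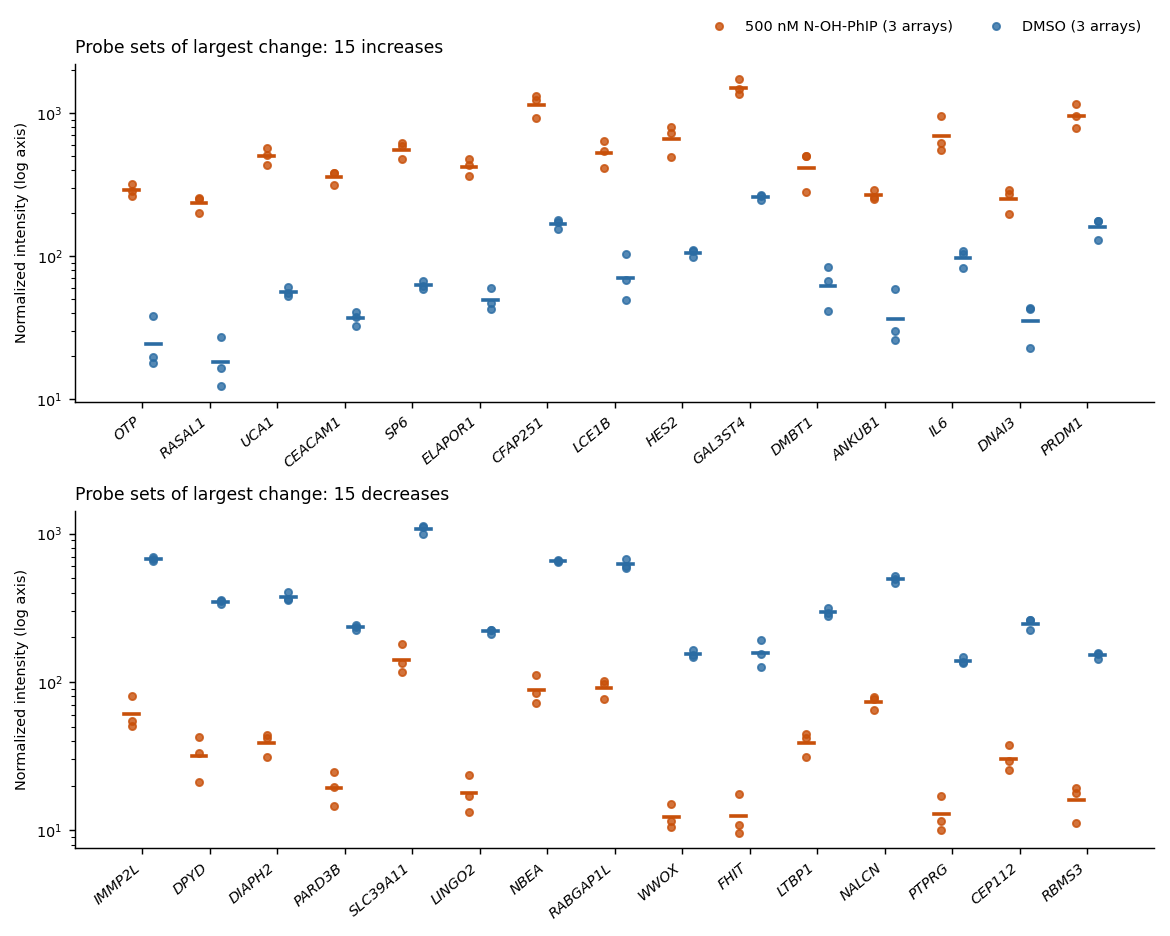
Normalized intensity (log axis) of each array for the 15 probe sets that increased most and the 15 that decreased most at 500 nM, with 500 nM arrays left of DMSO arrays. Points are arrays and bars mark the group means taken on the log2(intensity + 16) scale. Groups do not overlap in any of the 30, which the choice of these genes requires, and IL6 and HES2 show 500 nM replicate 3 at opposite ends of their group.

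The largest decreases included genes known to span very long genomic distances. IMMP2L, a subunit of the mitochondrial inner membrane peptidase, had 50.2, 54.5 and 79.8 at 500 nM, against 649.6, 695 and 674 in DMSO. DPYD, which starts pyrimidine breakdown, had 42.8, 21 and 33.4 at 500 nM and 356, 351.4 and 336 in DMSO. FHIT, the dinucleoside triphosphate hydrolase at the fragile site FRA3B, had 10.9, 17.4 and 9.61 at 500 nM and 127, 155 and 190.4 in DMSO. The 500 nM arrays were all well below the DMSO arrays in these genes. Their log2 changes were -3.17 ± 0.13, -2.94 ± 0.12 and -2.59 ± 0.13 (adjusted p 2.99e-16, 5.03e-16 and 1.01e-14, limma). WWOX, an oxidoreductase at FRA16D, had 10.5, 15 and 11.6 at 500 nM and 147, 165 and 152 in DMSO (-2.59 ± 0.11) in its most changed probe set, and 3 of its 4 tested probe sets fell. DIAPH2, a formin, changed by -2.84 ± 0.12. PTPRG, a receptor tyrosine phosphatase, changed by -2.43 ± 0.12 in its most changed probe set and by -2.39 ± 0.17 in its brightest. NALCN, a sodium leak channel, changed by -2.50 ± 0.09, SLC39A11, a zinc transporter, by -2.79 ± 0.09, CEP112, a centrosomal protein, by -2.50 ± 0.14 and RBMS3, an RNA-binding protein, by -2.39 ± 0.10. In the most changed probe sets, all 3 arrays of 500 nM for FHIT, WWOX, PTPRG and RBMS3, and 2 of 3 for DPYD and CEP112, lay under the minimum level. The size of these changes therefore depends on the offset.

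Of 12 tested genes of common fragile sites, 8 fell and 0 rose, with a median log2 change of -2.18, beside 0.007 over all genes. The 4 not called, named here after their values were seen, were MACROD2 (-0.24), DMD (-0.10), AUTS2 (-0.06) and RORA (0.04). In MACROD2, 2 of 3 tested probe sets were called lower, though not the brightest, which stands for the gene here. Earlier results of these data had already named IMMP2L, DPYD, DIAPH2 and NBEA, and among the other 8 members 4 fell with a median of -0.39. Of 56 tested very long genes outside these sites, 47 fell and 3 rose, with a median of -1.35 that was -1.38, -1.22 and -1.19 in 500 nM replicates 1, 2 and 3. Without the 7 members that earlier results had named, 40 of 49 fell with a median of -1.24. Both lists were drawn from general knowledge of gene spans, and no genomic length was read from the files.

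Among the very long genes, PARD3B, a polarity protein, had 14.6, 19.5 and 24.7 at 500 nM and 243, 234 and 224 in DMSO (-2.82 ± 0.13). RABGAP1L, a GTPase activator of endosomes, had 76.3, 102 and 96.5 at 500 nM and 590.0, 669 and 602 in DMSO (-2.57 ± 0.12), and all 3 of its tested probe sets fell. CDKAL1, a tRNA-modifying enzyme, had 284, 144 and 312 at 500 nM and 1296, 1282 and 1282 in DMSO (-2.38 ± 0.16). Groups did not overlap in these genes, and the spread of the 500 nM arrays of CDKAL1 was wider than that of its DMSO arrays. The 500 nM arrays of PARD3B and LINGO2 lay under the minimum level, and LINGO2, a neuronal transmembrane protein, changed by -2.80 ± 0.12 and LTBP1, which binds latent TGF-β, by -2.51 ± 0.15. The 3 members that rose, named after their values were seen, were ZBTB20 (0.50 ± 0.16), a zinc finger repressor, NRG1 (0.32 ± 0.12), an ERBB ligand, and VTI1A (0.27 ± 0.10), a vesicle SNARE whose arrays overlapped between the groups. Their calls were not firm: without 500 nM replicate 3 or without DMSO replicate 1, 1 of the 3 remained, and with the 3′ to 5′ ratio as a covariate 0 did.

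**Figure D2:**
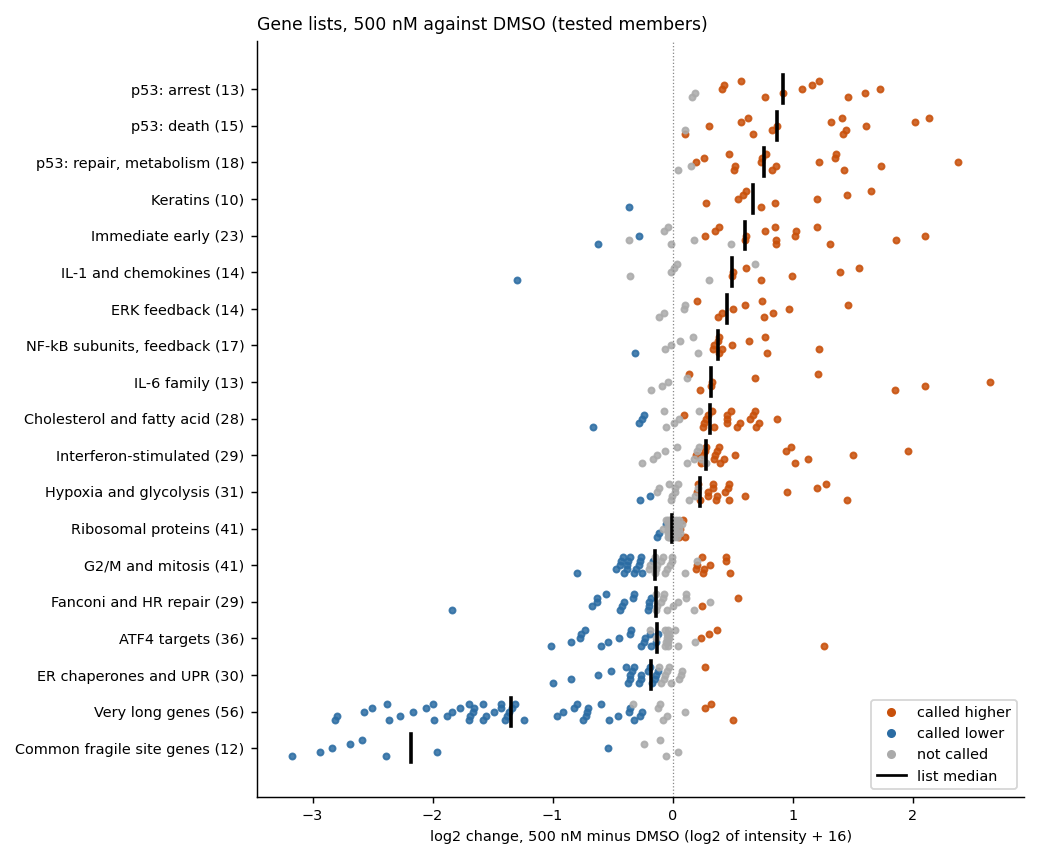
Log2 change at 500 nM minus DMSO of every tested member of 19 gene lists, numbers of members in parentheses, each gene by its brightest tested probe set. Orange and blue points passed the test, grey points did not, and black bars are list medians, from -2.18 for fragile site genes to 0.92 for p53 targets of arrest.

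Target genes of p53 rose in nearly all members measured. As with all lists here, the members were chosen with earlier results of these data known. No tested member of 3 lists of targets fell, where over all genes 25.2% rose and 24.8% fell. Of those of growth arrest and stress 11 of the 13 tested rose (median 0.92), of those of cell death 14 of the 15 tested (median 0.87) and of those of repair and metabolism 16 of the 18 tested (median 0.76). CDKN1A, the cyclin-dependent kinase inhibitor p21, had 8407, 8124 and 7370 at 500 nM, against 4588, 4479 and 4920 in DMSO (0.77 ± 0.05, adjusted p 6.77e-12, limma). SESN1, a sestrin that restrains growth under stress, had 897, 956 and 779 at 500 nM and 249, 244 and 267 in DMSO (1.73 ± 0.09). FAS, a death receptor, had 3131, 3130 and 3112 at 500 nM and 989, 987 and 1071 in DMSO (1.61 ± 0.05, adjusted p 4.68e-18, limma). Groups did not overlap in these genes, and the 500 nM arrays of FAS were almost level with each other. TP53I3, a quinone oxidoreductase, had 7071, 7020 and 5437 at 500 nM and 1509, 1588 and 1669 in DMSO (2.02 ± 0.08). TNFRSF10C, a decoy receptor of TRAIL, changed by 2.14 ± 0.17, DRAM1, a lysosomal autophagy regulator, by 1.44 ± 0.08 and PIDD1, a death-domain protein, by 1.42 ± 0.15. ACER2, an alkaline ceramidase, had 737, 583 and 796 at 500 nM and 122, 120.1 and 124 in DMSO (2.37 ± 0.11). CYFIP2, a WAVE complex subunit, changed by 1.74 ± 0.13, and TRIM22, also an interferon-responsive gene, by 1.35 ± 0.12. SERTAD1, which binds CDK4 and was counted in the list of arrest and stress, changed by 1.60 ± 0.11. PHLDA3, an AKT repressor, changed by 1.46 ± 0.12 and SFN, stratifin, by 1.16 ± 0.08.

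Regulators that feed back on p53 were less uniform, with 6 of 9 tested higher and 2 lower. MDM2, the ubiquitin ligase of p53, was measured by 10 probe sets, of which 9 were tested and all 9 rose. Its brightest had 7011, 6195 and 6886 at 500 nM and 4875, 4227 and 4692 in DMSO (0.54 ± 0.05), and the log2 changes of the 9 ran from 0.54 to 2.37. The brightest changed least, and the probe set that changed by 2.37 ± 0.28 had 218, 165 and 399.8 at 500 nM and 36.7, 36.0 and 30.9 in DMSO. PPM1D, a phosphatase that switches the p53 signal off, had 1643, 1434 and 1782 at 500 nM and 674, 763 and 733 in DMSO (1.14 ± 0.07). ZMAT3, an RNA-binding p53 target, changed by 1.01 ± 0.07, TP53INP1 by 0.77 ± 0.08 and TP73, a p53 relative that was not called with the 3′ to 5′ covariate, by 0.38 ± 0.12.

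In nucleotide excision and transcription-coupled repair 8 of 28 genes rose and 8 fell, near the shares over all genes. XPC, which recognises helix distortion, had 766, 785 and 712 at 500 nM and 263, 276 and 316 in DMSO (1.36 ± 0.09). DDB2, which finds damage in chromatin, had 3218, 3131 and 2752 at 500 nM and 1183, 1298 and 1392 in DMSO (1.22 ± 0.07). Both are known p53 targets, and every 500 nM array lay above every DMSO array. ERCC2, a TFIIH helicase, changed by 0.53 ± 0.10 and MNAT1, an assembly factor of the CDK-activating kinase of TFIIH, by -0.59 ± 0.05. Fanconi and homologous recombination genes fell in 14 of 29 and rose in 2, with a median of -0.14, and 9 fell with the 3′ to 5′ covariate. FANCF changed by -0.63 ± 0.08, RAD54B by -0.63 ± 0.10 and FANCC by -0.55 ± 0.09. XRCC2, a recombination protein, was called lower (-0.67 ± 0.25), but its arrays overlapped, with 138, 98.3 and 109 at 500 nM and 362, 137 and 137 in DMSO, and it was not called without DMSO replicate 1. Base excision, mismatch and direct repair genes fell in 9 of 20 and rose in 3. MGMT, which removes alkyl groups from guanine, had 259.5, 335 and 235 at 500 nM and 893, 955 and 969 in DMSO (-1.72 ± 0.10). Of translesion and checkpoint genes 2 of 28 rose (5 with the covariate) and 8 fell, the second count near the share over all genes. POLH, the polymerase eta that copies past bulky lesions, rose by 0.78 ± 0.08, while CHEK1, the checkpoint kinase, changed by -0.58 ± 0.06 and CLSPN, its adaptor, by -0.70 ± 0.17 with a low second array (925, 475 and 942 at 500 nM, against 1201, 1257 and 1211 in DMSO).

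Cytokines of the interleukin 6 family and their signalling genes rose in 9 of 13 tested members and fell in 0, with a median of 0.32. IL6 itself had 618, 554 and 951 at 500 nM, against 82.4, 102 and 108 in DMSO (2.64 ± 0.18, adjusted p 5.37e-12, limma). 500 nM replicate 3 was the highest, and without it the change was 2.41. LIF had 371, 311 and 354 at 500 nM and 71.6, 85.3 and 96.8 in DMSO (1.85 ± 0.12). IL11 had 306, 262 and 269.8 at 500 nM and 42.6, 70.5 and 48.2 in DMSO (2.10 ± 0.12). No array of either group overlapped for these 3 ligands. SOCS3, the feedback inhibitor of the receptor complex, changed by 1.21 ± 0.10 and STAT3, its transcription factor, by 0.69 ± 0.10. Interleukin 1 and chemokine genes rose in 7 of 14 and fell in 1, with 16 further list members on the array below the minimum level. CXCL8, a chemokine for neutrophils, had 438, 354 and 648 at 500 nM and 123, 149 and 175 in DMSO (1.55 ± 0.22). IL1B had 309.5, 257 and 341 at 500 nM and 112, 98.8 and 103 in DMSO (1.39 ± 0.12). TSLP, an epithelial cytokine of allergic inflammation, had 439, 396 and 526 at 500 nM and 1136, 1039 and 1214 in DMSO (-1.29 ± 0.09), the single member that fell. PTGS2, the inducible cyclooxygenase, had 435, 324 and 759.6 at 500 nM and 231, 339.5 and 279 in DMSO (0.73 ± 0.20). Its groups overlapped, with 500 nM replicate 2 inside the DMSO range and replicate 3 highest. Without that array the change was 0.40 and was not called, and with the 3′ to 5′ covariate it was -0.034.

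Subunits and feedback inhibitors of NF-kB rose in 11 of 17 and fell in 1. TNFAIP3, the deubiquitinase A20, had 521, 561 and 659 at 500 nM and 189.5, 315 and 227 in DMSO (1.22 ± 0.14). NFKBIE, an inhibitory subunit, changed by 0.79 ± 0.11, NFKB2 by 0.77 ± 0.10 and RELB, which was not called with the 3′ to 5′ covariate, by 0.50 ± 0.11. NFKBIZ had 589.6, 483 and 1060 at 500 nM and 401, 434 and 446 in DMSO (0.64 ± 0.22), a change that was not called without replicate 3 (0.31) and was -0.11 with the 3′ to 5′ covariate. Of 29 interferon-stimulated genes 18 rose and 0 fell, while with the covariate 12 rose and 1 fell. The 11 not called, some named here after their values were seen, included IFIT1 (-0.07), IFIT2 (0.28), IFI44 (-0.16), MX1 (0.20) and USP18 (0.04). OAS1, OAS2, MX2, IFI44L, XAF1 and RSAD2 were below the minimum level. ISG15, a ubiquitin-like modifier, had 3805, 3942 and 2607 at 500 nM and 832, 834 and 922 in DMSO (1.96 ± 0.12). IFIT3, which binds viral RNA complexes, had 532, 542 and 446 at 500 nM and 153, 157 and 197 in DMSO (1.503 ± 0.13). The lowest 500 nM value of both was in replicate 3 and was still above every DMSO array. IFITM1, a membrane protein that hinders virus entry, changed by 1.13 ± 0.09, IRF1, a transcription factor, by 1.02 ± 0.09 and ISG20, an exonuclease, by 0.99 ± 0.13. Among antigen presentation genes 10 of 16 rose and 2 fell. TAP1, the peptide transporter, changed by 1.13 ± 0.09, HLA-E by 0.62 ± 0.07 and NLRC5, their transactivator, which was not called with the covariate, by -0.56 ± 0.16.

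The promoter windows of 4 of these and of the sterol genes below were read from RefSeq (GRCh38.p14), 250 bases before to 50 after the annotated start. They are shown because the genes changed most among the members of their lists that hold the motif searched. Capitals mark the matches, to GGANTTTCC (NF-kB) in IL6 and CXCL8, to GAAANNGAA (an interferon response element core) in ISG15, where 3 matches overlap, and to TCACNCCAC (a sterol element) in SREBF2. The windows are chr7:22726950-22727249 for IL6, chr4:73740319-73740618 for CXCL8, chr1:1013247-1013546 for ISG15 and chr22:41832855-41833154 for SREBF2, all on the plus strand.
IL6: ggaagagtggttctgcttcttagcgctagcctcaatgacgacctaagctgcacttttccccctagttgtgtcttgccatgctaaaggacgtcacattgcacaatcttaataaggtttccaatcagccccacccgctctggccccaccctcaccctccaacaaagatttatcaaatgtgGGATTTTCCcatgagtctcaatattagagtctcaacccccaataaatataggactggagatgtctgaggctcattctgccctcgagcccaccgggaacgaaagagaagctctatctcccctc
CXCL8: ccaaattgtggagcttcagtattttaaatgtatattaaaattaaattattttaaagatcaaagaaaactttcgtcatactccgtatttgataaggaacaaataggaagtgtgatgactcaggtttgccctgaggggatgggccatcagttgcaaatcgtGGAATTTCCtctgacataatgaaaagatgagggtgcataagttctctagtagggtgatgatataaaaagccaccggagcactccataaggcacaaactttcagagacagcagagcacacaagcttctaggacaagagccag
ISG15: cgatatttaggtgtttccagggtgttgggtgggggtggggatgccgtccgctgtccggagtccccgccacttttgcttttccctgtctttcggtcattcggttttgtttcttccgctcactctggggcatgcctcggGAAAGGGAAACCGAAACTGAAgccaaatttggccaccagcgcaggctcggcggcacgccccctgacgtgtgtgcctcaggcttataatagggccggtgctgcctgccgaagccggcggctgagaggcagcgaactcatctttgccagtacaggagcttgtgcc
SREBF2: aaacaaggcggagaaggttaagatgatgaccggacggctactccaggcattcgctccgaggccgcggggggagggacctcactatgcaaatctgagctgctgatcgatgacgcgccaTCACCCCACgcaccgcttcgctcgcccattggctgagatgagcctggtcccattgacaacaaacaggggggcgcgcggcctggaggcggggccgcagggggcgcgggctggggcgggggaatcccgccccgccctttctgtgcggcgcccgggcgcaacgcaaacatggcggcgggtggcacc

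Searched on both strands, GGANTTTCC was found in 1.64% of all 27305 windows and 1.72% of those of tested genes. It was in 6 of 13 windows of tested interleukin 1 and chemokine genes, in 5 of 14 of NF-kB genes and in 1 of 12 of interleukin 6 family genes. GAAANNGAA was in 8.29% of all windows, in 6.19% of those of tested genes and in 17 of 22 of tested interferon-stimulated genes, with 11 of 14 among those that rose. TCACNCCAC was in 1.15% of all windows, in 1.08% of those of tested genes and in 1 of 25 of the sterol and fatty acid genes. TGANTCA, the AP-1 element, was in 7.76% of all windows, 4.44% of those of tested genes and 1 of 17 of immediate early genes. TGACGTCA, the cyclic AMP element, was in 1.98% of all windows, 3.3% of those of tested genes and 2 of 17 of immediate early genes. ACGTG, the core of the hypoxia element, was in 21.6% of all windows, 26.9% of those of tested genes and 12 of 28 of hypoxia and glycolysis genes. Each match says only that these letters stand in the window.

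Immediate early genes, which respond to growth signals and stress within minutes, rose in 15 of 23 and fell in 2, with a median of 0.60. NR4A3, an orphan nuclear receptor, had 506, 550.0 and 541 at 500 nM and 114, 112 and 109.6 in DMSO (2.10 ± 0.10). FOSL1, an AP-1 subunit, had 1320, 1386 and 1051 at 500 nM and 301, 327 and 368 in DMSO (1.86 ± 0.19). The groups did not overlap in either gene. FOSB changed by 1.02 ± 0.17, NR4A1 by 1.20 ± 0.12 and BHLHE40, a clock-linked repressor, by 1.31 ± 0.18. ATF3, a stress-induced AP-1 partner, had 4000, 4037 and 3980 at 500 nM and 2236, 2429 and 2364 in DMSO in its brightest probe set (0.77 ± 0.09), a second probe set changed by 1.31 ± 0.13 and the third, near the minimum level, by 8.3e-04 ± 0.15. Feedback genes of ERK signalling rose in 10 of 14 and fell in 0. DUSP4, a phosphatase of ERK, had 897, 856 and 919.7 at 500 nM and 275, 323 and 346 in DMSO (1.46 ± 0.12), DUSP1 changed by 0.97 ± 0.12 and SPRY1, a Sprouty inhibitor, by 0.76 ± 0.12. In that list 7 rose and 1 fell without 500 nM replicate 3, and 4 rose and 1 fell with the 3′ to 5′ covariate, under which SPRY1 was not called. Ligands and receptors of the EGF family rose in 4 of 11 and fell in 2, with 2 higher under the covariate. HBEGF had 2179, 2717 and 2071 at 500 nM and 1239, 1357 and 1384 in DMSO (0.79 ± 0.13), EREG changed by 0.76 ± 0.12 and LRIG1, which degrades the receptor, by -0.66 ± 0.09.

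Among 28 ligands, regulators and targets of TGF-β and BMP signalling 17 rose and 3 fell, and without 500 nM replicate 3 the counts were 15 and 6. TGFB2, a ligand, had 331, 305 and 342 at 500 nM and 116, 107 and 99.4 in DMSO (1.47 ± 0.14). INHBA, an activin subunit, changed by 1.29 ± 0.17. ID2, an inhibitor of helix-loop-helix factors, had 144, 136 and 167 at 500 nM and 20.7, 25.9 and 29.2 in DMSO (2.00 ± 0.12), where DMSO arrays lay under the minimum level. THBS1, a matrix protein that activates latent TGF-β, had 1869, 1177 and 3093 at 500 nM and 469.7, 487 and 504 in DMSO (1.93 ± 0.25, and 1.58 without replicate 3). Targets and factors of YAP and TEAD rose in 10 of 16 and fell in 0, among them CCN1 (0.70 ± 0.10), a matrix-associated protein, and TEAD4 (0.50 ± 0.08). CCN2 (0.72 ± 0.18), its relative, was not called with the 3′ to 5′ covariate. In the YAP list 9 rose and 3 fell without 500 nM replicate 3, and 4 rose and 1 fell with the covariate.

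Epithelial structure genes also moved. Keratins rose in 9 of 10 and fell in 1. KRT8, of simple epithelium, had 1242, 1604 and 1258 at 500 nM and 464, 497 and 503 in DMSO (1.45 ± 0.14). KRT15, of basal cells, had 304, 314 and 185 at 500 nM and 64.8, 73.9 and 77.5 in DMSO (1.66 ± 0.16), with replicate 3 the lowest of its group. KRT19 changed by 0.85 ± 0.09 and KRT80 by 1.20 ± 0.11. Tight junction, desmosome and hemidesmosome genes rose in 10 of 25 and fell in 2, or in 12 and 4 without 500 nM replicate 3, including CLDN1 (0.80 ± 0.05), a claudin, JUP (1.14 ± 0.10), plakoglobin, and LAMB3 (0.79 ± 0.10), a laminin chain. Squamous differentiation genes rose in 10 of 16 and fell in 1, among them PPL (0.66 ± 0.10), periplakin, and S100P (1.12 ± 0.15). Of genes of mesenchymal transition 4 of 13 rose and 5 fell. SNAI2, a repressor of E-cadherin, had 917, 838 and 1151 at 500 nM and 244, 345 and 291 in DMSO (1.67 ± 0.15) and VIM, vimentin, changed by 0.93 ± 0.13. CDH2, N-cadherin, had 141, 129 and 172 at 500 nM and 252, 289 and 238 in DMSO (-0.76 ± 0.11). Notch pathway genes rose in 10 of 19 and fell in 1, or 3 without 500 nM replicate 3. NOTCH1 had 1008, 1013 and 1096 at 500 nM and 425, 430.0 and 468 in DMSO (1.21 ± 0.07), NOTCH3 changed by 1.23 ± 0.13 and HES1, a target, by 0.87 ± 0.14.

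Genes of the endoplasmic reticulum (ER) mostly fell. ER chaperones and regulators of the unfolded protein response fell in 19 of 30 and rose in 1 (median -0.18). ATF6, a sensor, had 239.6, 261 and 261 at 500 nM and 497, 535 and 536 in DMSO (-0.996 ± 0.08), and all 4 tested probe sets fell. HERPUD1, of ER-associated degradation, had 1577, 1726 and 1803 at 500 nM and 2881, 3216 and 3146 in DMSO (-0.85 ± 0.05), and XBP1, a transcription factor of the response, changed by -0.62 ± 0.08. Genes of the ATF4 response to amino acid and other stress fell in 17 of 36 and rose in 4. TRIB3, a pseudokinase, had 1490, 1869 and 1396 at 500 nM and 3108, 3081 and 3372 in DMSO (-1.01 ± 0.07), while NUPR1, a stress protein, had 651, 640.4 and 458 at 500 nM and 205, 234 and 258 in DMSO (1.26 ± 0.14). SLC7A11, the cystine transporter, changed by -0.76 ± 0.06. With the 3′ to 5′ covariate, 10 of the ER list and 11 of the ATF4 list fell. Of 18 cytosolic heat shock genes 13 rose and 1 fell, led by HSPA4L (1.11 ± 0.08) and BAG3 (0.94 ± 0.08), a co-chaperone.

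Antioxidant genes under NRF2 showed no common direction, with 11 of 27 higher and 8 lower. NQO1, a quinone reductase, had 3845, 3876 and 3827 at 500 nM and 2833, 2925 and 3063 in DMSO in its brightest probe set (0.39 ± 0.04), and all 3 tested probe sets rose. HMOX1, heme oxygenase, had 58.2, 69.4 and 96.3 at 500 nM and 29.9, 35.5 and 30.9 in DMSO (0.89 ± 0.14). KEAP1, the inhibitor of NRF2, changed by 1.02 ± 0.12, ME1, malic enzyme, by -0.79 ± 0.07 and ABCC4, an efflux pump in a long gene, by -1.43 ± 0.14. Aryl hydrocarbon receptor and xenobiotic genes rose in 4 of 13 and fell in 4. CYP1A1, the best known target of the receptor, was below the minimum level, with 14.8, 13.2 and 12.1 at 500 nM and 20.3, 32.6 and 30.9 in DMSO, and was not tested. CYP1B1 had 114, 101 and 135 at 500 nM and 172, 139.5 and 192 in DMSO (-0.47 ± 0.11), and 2 of its 3 tested probe sets fell. NAT1, an acetyltransferase of the kind that esterifies N-hydroxy amines, had 528, 525 and 603 at 500 nM and 364, 394 and 346 in DMSO (0.56 ± 0.07). SULT1A1, a sulfotransferase with close paralogs that the probes may not tell apart, changed by 0.60 ± 0.11.

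Of 28 genes that make cholesterol and fatty acids 19 rose and 4 fell. HSD17B7, of sterol demethylation, had 1370, 1390 and 1272 at 500 nM and 758, 723 and 704 in DMSO (0.87 ± 0.06), INSIG1, the sterol sensor's retention factor, changed by 0.69 ± 0.11 and FASN, fatty acid synthase, by 0.69 ± 0.12. SREBF2, the factor whose promoter is shown above, named for that reason, changed by 0.34 ± 0.11. Among 31 genes of hypoxia and glycolysis 18 rose and 2 fell. ADM, adrenomedullin, had 1415, 1468 and 1655 at 500 nM and 507, 572 and 547 in DMSO (1.45 ± 0.08), and ALDOC, an aldolase, changed by 1.28 ± 0.10. Growth genes moved both ways, as did all genes, of which 25.2% rose and 24.8% fell. Cyclins, CDKs and their inhibitors rose in 7 of 22 and fell in 7, near those shares. CCND1, cyclin D1, had 1065, 1158 and 890.0 at 500 nM and 406, 422 and 418 in DMSO (1.28 ± 0.12), and CCNB1, cyclin B1, changed by -0.36 ± 0.05. Replication and G1/S genes rose in 15 of 42 and fell in 14 (9 with the 3′ to 5′ covariate), with GINS4, a subunit of the replicative helicase complex, at 0.77 ± 0.11, E2F2 at -0.89 ± 0.10 and CDC45, a helicase subunit, at -0.56 ± 0.06. Of G2/M and mitosis genes 9 of 41 rose and 17 fell, with AURKA, a mitotic kinase, at 3328, 3490 and 3190 for 500 nM and 4577, 4763 and 4588 for DMSO (-0.48 ± 0.04). In the BCL2 family 8 of 18 rose (5 with the covariate) and 5 fell. BAX, which permeabilises mitochondria, had 2209, 1516 and 1716 at 500 nM and 926, 1034 and 1058 in DMSO (0.83 ± 0.09), BAK1, its relative, changed by 0.90 ± 0.11 and BCL2, which opposes both, by -1.39 ± 0.16.

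Replicate 3 of 500 nM had the smallest overall response of the 3 arrays, yet the highest medians in some lists. The median difference from the DMSO mean over probe sets called higher was 0.43, 0.50 and 0.38 in 500 nM replicates 1, 2 and 3, and over those called lower it was -0.40, -0.46 and -0.37. List medians in replicates 1, 2 and 3 were 0.31, 0.22 and 0.65 for interleukin 1 and chemokine genes, 0.41, 0.59 and 0.76 for immediate early genes and 0.51, 0.34 and 0.60 for ERK feedback genes, highest in replicate 3 in each. They were 0.45, 0.48 and 0.17 for NF-kB genes and 0.65, 0.90 and 0.55 for keratins, lowest in replicate 3. For p53 targets of repair and metabolism they were 0.87, 0.72 and 0.77. Without replicate 3, 13519 probe sets were called, against 12392 with it. Of 248 named probe sets of called genes, 6 then missed the threshold: RPL11, PTGS2, XRCC2, AGR2, SFTPB and NFKBIZ, and 0 reversed.

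**Figure D3:**
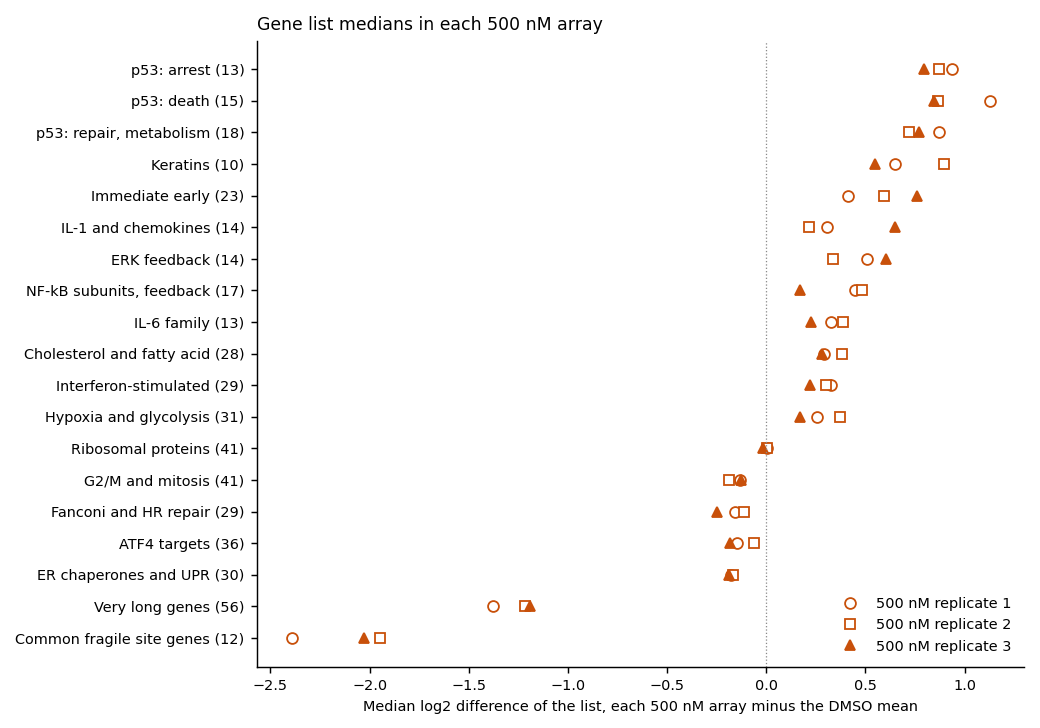
Median log2 difference from the DMSO mean over the tested members of each list in each of the 3 arrays of 500 nM, with replicate 3 as filled triangles. Replicate 3 is the highest of the 3 for immediate early, ERK feedback and interleukin 1 and chemokine genes and the lowest for NF-kB genes and keratins.

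Against the next higher dose, 1000 nM, most p53 targets of cell death and of repair and metabolism stood higher at 500 nM, and those of arrest did not. The difference in this contrast does not use the DMSO arrays, though its SE comes from the fit of all 29 arrays. In it 11820 probe sets were called, 6990 higher and 4830 lower at 500 nM than at 1000 nM. By genes 31.8% were higher and 15.4% lower, and the median difference over all genes was 0.07. Of p53 targets of cell death 12 of 15 were higher at 500 nM and 2 lower, and of those of repair and metabolism 14 of 18 were higher and 2 lower, while of those of arrest 5 of 13 were higher and 3 lower. FAS averaged 3124 ± 10.6 at 500 nM and 1943 ± 102 at 1000 nM (0.68 ± 0.05). CYFIP2 averaged 586 ± 63.9 at 500 nM and 195 ± 26.6 at 1000 nM (1.51 ± 0.13), and DDB2 3034 ± 248 at 500 nM and 1506 ± 71.7 at 1000 nM (1.001 ± 0.07) (means ± SD, n = 3 each). Nucleotide excision repair genes were higher at 500 nM in 17 of 28 and lower in 1, and Fanconi and homologous recombination genes higher in 16 of 29 and lower in 3. Translesion and checkpoint genes were higher in 13 of 28 and lower in 6, and base excision, mismatch and direct repair genes higher in 8 of 20 and lower in 2. Interferon-stimulated genes were higher in 11 of 29 and lower in 3, close to the share over all genes for the higher ones.

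Single cytokines differed in opposite ways between these doses. IL6 had 618, 554 and 951 at 500 nM and 125, 159.8 and 157 at 1000 nM (2.11 ± 0.18, adjusted p 1.47e-09, limma), and no arrays overlapped. IL11 averaged 279 ± 23.3 at 500 nM and 609 ± 50.8 at 1000 nM (-1.08 ± 0.12). TGFB2 averaged 326 ± 19 at 500 nM, 112 ± 17.9 at 1000 nM and 108 ± 8.33 in DMSO, so the 1000 nM mean lay close to that of DMSO. FGF1, a fibroblast growth factor, had 247, 268 and 207 at 500 nM and 54, 60.5 and 52.6 at 1000 nM (1.83 ± 0.13), RASAL1 differed by 1.77 ± 0.14 and the antisense RNA RNF157-AS1, which may share signal with its partner gene, by 1.83 ± 0.15. SOX6, a transcription factor in a very long gene, had 118, 106 and 87.9 at 500 nM and 19.8, 17.4 and 22.8 at 1000 nM (1.73 ± 0.13) in its most different probe set, which did not pass the test against DMSO (0.01 ± 0.13).

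Lower at 500 nM than at 1000 nM were chaperones and genes of hypoxia, sterols and histones. ER chaperones were lower in 18 of 30 and higher in 2, hypoxia and glycolysis genes lower in 16 of 31 and higher in 0, sterol and fatty acid genes lower in 13 of 28 and higher in 5, and histones lower in 9 of 11 and higher in 0, beside 15.4% of all genes lower. FOSB averaged 177 ± 12.6 at 500 nM and 498 ± 72.5 at 1000 nM (-1.40 ± 0.17), and ID2 149 ± 16.1 at 500 nM and 596 ± 37.3 at 1000 nM (-1.90 ± 0.12). H2BC12, a histone, averaged 616 ± 65.7 at 500 nM and 1758 ± 40.4 at 1000 nM (-1.49 ± 0.09). The largest such differences were in single probe sets of JMJD6 (1 of 3 tested), a lysyl hydroxylase of splicing proteins, with 117, 94.3 and 82.5 at 500 nM and 733, 1352 and 1002 at 1000 nM (-3.17 ± 0.15), and of ABCF2 (1 of 5), an ATP-binding protein of the ABC family, with 34.2, 29.9 and 34.8 at 500 nM and 272, 403 and 287 at 1000 nM (-2.76 ± 0.11). The 500 nM arrays of this ABCF2 probe set lay under the minimum level. Its mean over the series (5.75 log2) was just above the minimum for testing (5.739), and its high 1000 nM arrays contributed to that mean. Also in single probe sets, SLC25A3, the mitochondrial phosphate carrier, differed by -2.31 ± 0.10 (1 of 2 tested) and ZBTB11 by -2.21 ± 0.16 (1 of 2). EIF1, a translation initiation factor, differed by -2.21 ± 0.06 (1 of 7). Very long genes were higher at 500 nM than at 1000 nM in 30 of 56 and lower in 6, whereas fragile site genes were higher in 2 of 12 and lower in 6. Whether these shares differ from each other was not tested. Among the fragile site genes, the 500 nM means of FHIT, WWOX, PTPRG and DPYD lay under the minimum level of 37.4. The 1000 nM mean of FHIT (19.6) did too. Arrays of FHIT and DIAPH2 overlapped between these doses.

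**Figure D4:**
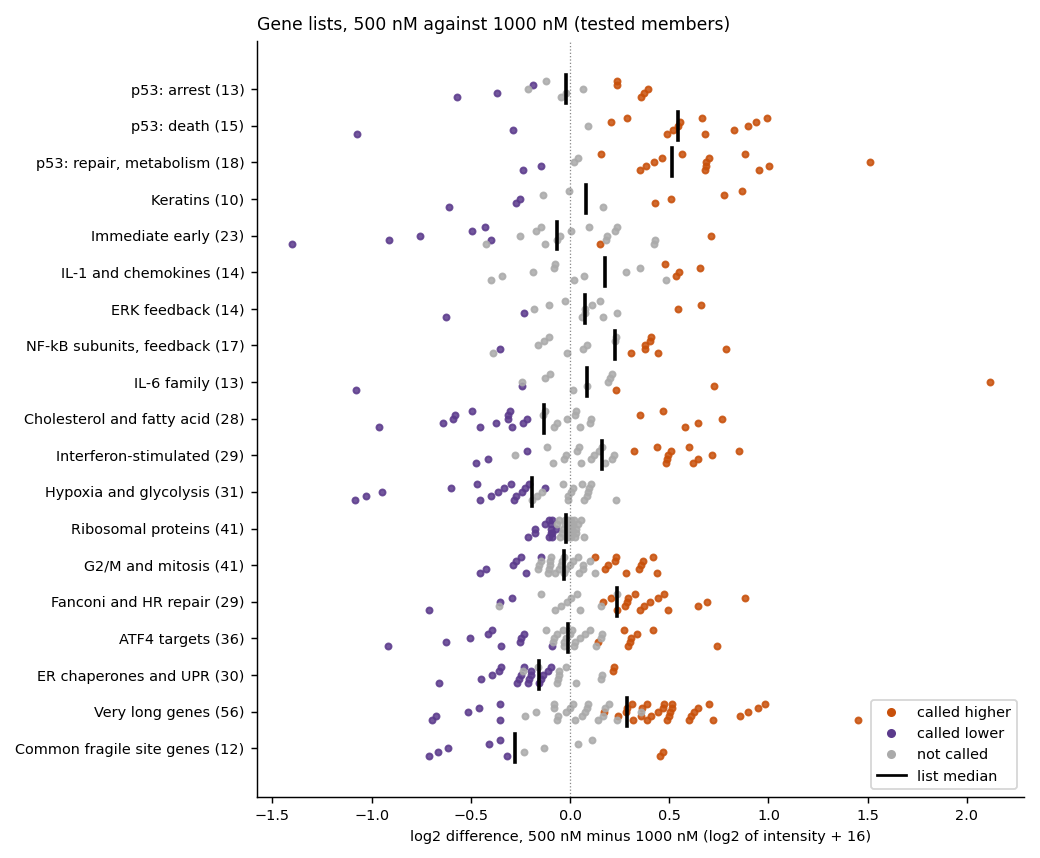
Log2 difference of 500 nM minus 1000 nM for every tested member of the same 19 lists, numbers of members in parentheses. Orange points were called higher at 500 nM, violet points lower, grey points neither, and black bars are list medians, among them 0.55 for p53 targets of cell death and -0.19 for hypoxia and glycolysis genes.

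Against the next lower dose, 100 nM, 9751 probe sets were called, 4853 higher and 4898 lower at 500 nM. By genes 18.8% were higher and 21.5% lower. Of the 3067 genes higher at 500 nM than in DMSO, 2114 were also higher than at 100 nM and 1 was lower, and of the 3015 lower than in DMSO, 2331 were also lower than at 100 nM and 1 higher. These counts share the 500 nM arrays and so are no separate result. CEACAM1 had 380.3, 382 and 316 at 500 nM and 62.5, 74.7 and 38.4 at 100 nM (2.36 ± 0.19). UCA1 differed by 2.55 ± 0.12, SP6 by 2.45 ± 0.11, OTP by 2.31 ± 0.14 and IGFL1, an insulin growth factor-like ligand, by 2.17 ± 0.18. DPYD had 42.8, 21 and 33.4 at 500 nM and 223, 198 and 185 at 100 nM (-2.19 ± 0.12), and NBEA, a vesicle trafficking protein, differed by -2.12 ± 0.12, IMMP2L by -2.11 ± 0.13 and DIAPH2 by -1.97 ± 0.12. FHIT averaged 12.7 ± 4.2 at 500 nM, 32.2 ± 4.38 at 100 nM and 158 ± 31.8 in DMSO. Very long genes were lower at 500 nM than at 100 nM in 45 of 56 and higher in 3. Immediate early genes were higher at 500 nM than at 100 nM in 17 of 23 and lower in 0. ZNF595, a zinc finger gene, had 22.8, 22 and 15.3 at 500 nM and 93.4, 89.5 and 244 at 100 nM (-2.01 ± 0.69) in its most changed probe set, with 1 array of 100 nM far above the others.

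**Figure D5:**
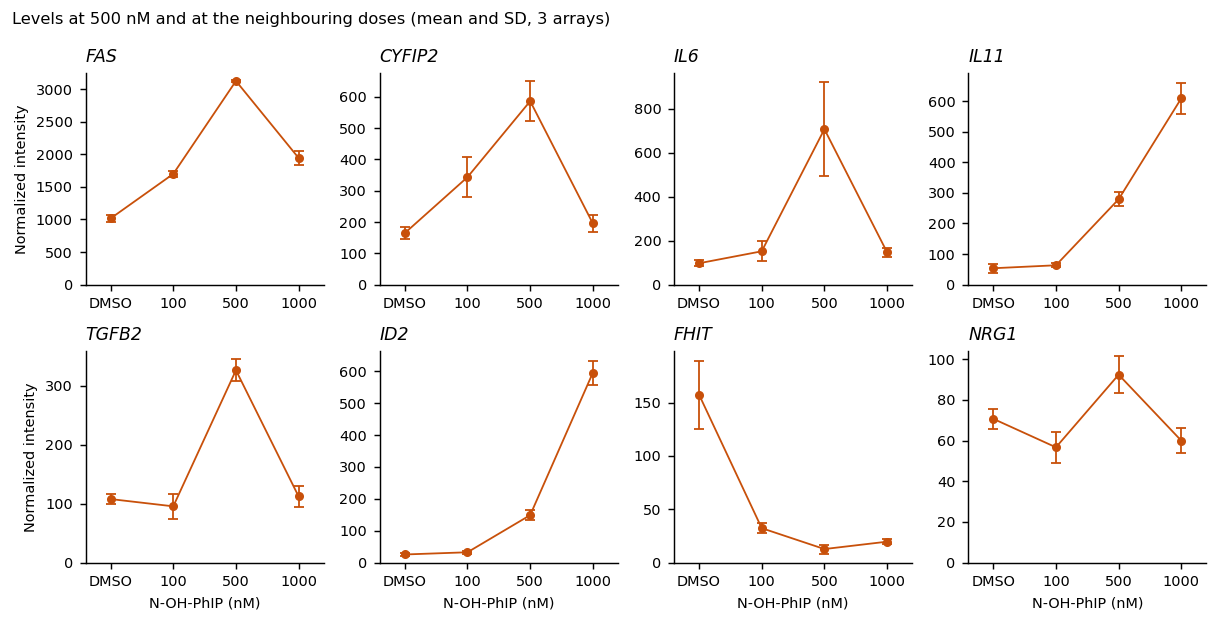
Normalized intensity (mean and SD, 3 arrays a group, axes starting at 0) of 8 genes in DMSO and at 100, 500 and 1000 nM. FAS, CYFIP2, IL6 and TGFB2 were higher at 500 nM than at both neighbouring doses. IL11 and ID2 were higher still at 1000 nM, and NRG1 was higher at 500 nM than at 100 and 1000 nM. FHIT had its lowest mean at 500 nM, but its arrays overlapped with those of 1000 nM. Its means at 100, 500 and 1000 nM all lay under the minimum level.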

How the data were processed

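The authors deposited linear normalized intensities per probe set. Signals came from GCOS per the submitters' processing notes, whose version and normalization are not given in the sources used here. Of 54675 probe sets, 62 controls were left out, 41091 had 1 gene symbol, 1801 several and 11721 none, and symbols came from the platform's annotation table. Of those with 1 symbol 41037 matched RefSeq genes, which changed 0 symbols. Trimmed means (2% from each end) of the 6 arrays ran from 299 to 308, so no further normalization was applied, and 0 pairs of arrays were identical. Values were log2(intensity + 16). The 27307 probe sets with a mean at or above the median of 5.74 log2 were tested.

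A limma 3.58.1 fit (R 4.3.3) had a mean for each of the 10 groups over 29 arrays, a mean-variance trend, two-sided tests, and Benjamini-Hochberg adjustment over every tested probe set, with calls at 0.05. Each gene of a list stands by its brightest tested probe set, and lists were described by counts and medians with no test. The genes of largest change in a comparison stand by their probe set of largest change. The members and lists were chosen with earlier results of these data known. Genes were named by rule: the 15 that rose and the 15 that fell most with groups apart, ranked by the smaller change of the fits with and without 500 nM replicate 3, up to 5 called members of each list of largest change, the 5 higher and 5 lower of each neighbouring dose, and a few genes of long-standing interest such as CDKN1A, MDM2, IL6 and CYP1A1. Some listed genes are not analysed here, and 1 that the rule names is not reported. Alternatives covered the offset, normalization, level filter, trend, replicate numbers, array weights, arrays in the fit, reference arrays, the 3′ to 5′ ratio and each array left out. The code was tested on simulated data. Figures were drawn with matplotlib 3.10.9.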

Additional observations from a re-analysis of the deposited data

How the results depend on the processing

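Counts of called probe sets (limma) were 12392 for 500 nM against DMSO, 11820 for 500 nM against 1000 nM and 9751 for 500 nM against 100 nM, and moved by over 1.5 times under 4 settings. With only the upper 25% by level tested they were 7331, 7131 and 6188, with only the 2 groups in the fit 7146, 6430 and 4872, and with at least 1.5-fold change 3436, 2543 and 2139. Array weights gave 5401, 3534 and 3661, from estimates that did not converge. The level filter and the fold minimum leave fewer probe sets by construction, and for the other settings the cause was not tested. Leaving out 1 array in turn gave 10590 to 13519 against DMSO. The numbers did not pair the arrays (correlations of same-numbered arrays 0.0095, -0.0272 and -0.182), and a fit with the replicate block called 12504, 11901 and 9842. Against the 0.1 and 1 nM arrays in place of DMSO 15211 were called, and with the 3′ to 5′ ratio as a covariate 9694. In each of these settings 19 of 50 list medians moved by more than the spread between replicates. With the 0.1 and 1 nM arrays 11 interleukin 1 and chemokine genes rose (7 against DMSO), 12 ribosomal protein genes fell (3) and 9 respiratory chain genes fell (3). The shares of all genes that rose or fell under the alternative settings are not given. List counts under those settings therefore have no such shares beside them. Leaving out replicate 3 of 500 nM and fitting only the 2 groups, a setting added after seeing the data together with the list counts under the fit settings and without members named earlier, gave 9996. Of the 248 named probe sets 3 reversed: H2BC12 (-0.073) against the 0.1 and 1 nM arrays, and PTGS2 (-0.034) and NFKBIZ (-0.11) with the covariate, and for all 3 the cause was not tested. With the covariate 22 others missed the threshold, with only the 2 groups 19 and with array weights 35. Levels under the minimum of 37.4 limit the size of the changes of dim genes such as FHIT and OTP.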

Other observations

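Of 401 tested ZNF zinc finger genes 95 rose and 78 fell, beside 25.2% and 24.8% of all genes, with a median of 0.0077. ZNF79 had 2391, 2875 and 1778 at 500 nM and 629, 496 and 642 in DMSO (1.95 ± 0.12), and ZNF385A, which binds p53, changed by 1.71 ± 0.13. Cytosolic ribosomal protein genes differed little from DMSO, with 4 of 41 higher and 3 lower and changes between -0.13 and 0.10. Nuclear genes of the respiratory chain rose in 14 of 42 and fell in 3, among them NDUFS1 (0.60 ± 0.06), a complex I subunit. Proteasome genes rose in 15 of 28 and fell in 1, with PSMC4, an ATPase of its cap, at 2859, 3143 and 2526 for 500 nM and 1889, 1914 and 1992 for DMSO (0.55 ± 0.06). Splicing and elongation genes rose in 13 of 32 and fell in 7, with 8 higher under the 3′ to 5′ covariate. POLR2A, the largest subunit of RNA polymerase II, had 1050, 1069 and 969.6 at 500 nM and 444, 572 and 536 in DMSO (0.98 ± 0.10), and HEXIM1, which restrains elongation, changed by 0.57 ± 0.07. Of 7 metallothionein list members 1 was higher and 1 lower, or 3 and 2 without 500 nM replicate 3.

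Genes responsive to glucocorticoids or retinoids rose in 6 of 11 and fell in 2. CRISPLD2 had 267, 263 and 239 at 500 nM and 42.2, 63 and 54.7 in DMSO (1.98 ± 0.12), and SGK1, a serum- and glucocorticoid-induced kinase, had 612, 601 and 793 at 500 nM and 225, 257 and 225 in DMSO (1.43 ± 0.13). TGM2, a transglutaminase, changed by 0.88 ± 0.19 against DMSO and by -1.70 ± 0.19 against 1000 nM. Of 6 tested noncoding host RNAs 2 rose. MIR100HG averaged 361 ± 20.6 at 500 nM, 167 ± 20 at 1000 nM and 166 ± 13 in DMSO, and it differed by 1.05 ± 0.10 against 1000 nM and by 1.06 ± 0.10 against DMSO. DMSO replicate 1 stood far above the other DMSO arrays in 3 genes named by the rule, and without it XRCC2 and SFTPB were not called. ZNF595, in its most changed probe set, had 22.8, 22 and 15.3 at 500 nM and 900.5, 63.2 and 48.2 in DMSO. SFTPB had 64.8, 62.6 and 58.5 at 500 nM and 191, 68.8 and 68.7 in DMSO, and XRCC2 is described above.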
